A study of Homo sapiens with 3 samples.

Results

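The genes described here are 10 feedback genes of the ERK pathway: the phosphatases DUSP4, DUSP5 and DUSP6, the Sproutys SPRY1, SPRY2 and SPRY4, the Sprouty relatives SPRED1 and SPRED2, and the transcription factors ETV4 and ETV5. Members were all probe sets that the platform annotation assigns to 1 of these symbols, which gave 24 of the 54675 probe sets and 10 of 19775 named genes. The list was chosen by knowledge of the pathway together with ratios already seen on these arrays, DUSP6 and DUSP4 against control among them. Every level and ratio below is therefore a description without a test. Total RNA was labelled with biotin through a 3′ in vitro transcription kit and hybridised to 1 short-oligonucleotide array per culture. HepG2, the label of all 3 cultures, is a line from a human liver tumour. Stable transfection gave 1 culture the open reading frame of Hsp27, another an shRNA against Hsp27 and the last a control vector, and all grew in DMEM with fetal bovine serum. They are called ORF, shRNA and control, and whether each line was a clone or a pool is not given in the sources used here. The series' title names a role of Hsp27, a small heat shock protein, in the spread of liver cancer, and the vectors were meant to raise or lower it.

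No group has a second array, so no replicate error exists and precision is limited by the number of arrays (3). HSPB1, which encodes Hsp27, had log2 signals of 13.11 on ORF, 13.03 on shRNA and 13.25 on control. The ORF array did not stand above control, and the groups are known by their labels only. Of 9 hepatocyte markers measured, 1 had a mean signal above the pooled median of all probe sets; ALB, APOA1, APOB, TTR, SERPINA1, FGB and FOXA2 were below it on all 3 arrays. Of 7 epithelial markers 5 were above it, of 10 fibroblast markers 6, of 8 endothelial markers 2 and of 8 leukocyte markers 0. The fibroblast marker LUM read 13.03 on ORF, 13.35 on shRNA and 13.30 on control, and the epithelial marker KRT7 13.33, 13.43 and 13.35. The hepatocyte markers thus do not bear out the label HepG2, and the identity of the cells was not tested. Summed linear signals were 29575 (ORF), 30572 (shRNA) and 36732 (control) for the epithelial markers, and 10850, 13253 and 12886 for the fibroblast markers. The 3′ to 5′ signal ratio of ACTB was 2.40, 2.23 and 2.70 in the same order, and that of GAPDH was 0.94, 0.90 and 0.93. The part of these differences in the results below was not tested, and in bulk RNA fewer cells of a type and less RNA per cell cannot be told apart.

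Growth factor receptors activate RAS, which drives the kinase cascade of RAF, MEK and ERK. Active ERK raises the transcription of its own inhibitors, so the RNA of these feedback genes is widely read as a record of the pathway's output. DUSP phosphatases remove the activating phosphates from ERK, while Sproutys and SPREDs act further up, between the receptor and RAF. ETV4 and ETV5 are ETS family activators whose genes respond to FGF and other receptor signals. Low levels of Sproutys and SPREDs have been described in liver cancers.

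The 250 bases before the annotated start are shown for DUSP6, SPRY2, SPRY4, SPRED1 and SPRED2. These are the genes that read higher on both vector arrays than on control and for which a window was used, and they are printed so that shared motifs can be looked for. They are from RefSeq (GRCh38.p14), written 5′ to 3′ on the gene's strand. Where a gene has several annotated starts, the one furthest upstream is given. Capitals mark CCGGAA, the core of an ETS site, and TGACG, the core of a CRE, on either strand.
DUSP6, chr12:89352502-89352751, minus strand: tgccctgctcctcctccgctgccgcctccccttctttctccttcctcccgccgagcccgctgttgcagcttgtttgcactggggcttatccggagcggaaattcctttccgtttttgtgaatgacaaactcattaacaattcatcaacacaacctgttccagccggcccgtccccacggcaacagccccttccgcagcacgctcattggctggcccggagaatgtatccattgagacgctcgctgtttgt
SPRY2, chr13:80341127-80341376, minus strand: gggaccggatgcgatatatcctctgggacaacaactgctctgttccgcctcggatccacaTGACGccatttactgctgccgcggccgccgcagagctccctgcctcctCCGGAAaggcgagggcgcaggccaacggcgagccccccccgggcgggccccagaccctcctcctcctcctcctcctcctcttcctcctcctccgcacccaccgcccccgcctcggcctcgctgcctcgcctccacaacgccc
SPRY4, chr5:142324248-142324497, minus strand: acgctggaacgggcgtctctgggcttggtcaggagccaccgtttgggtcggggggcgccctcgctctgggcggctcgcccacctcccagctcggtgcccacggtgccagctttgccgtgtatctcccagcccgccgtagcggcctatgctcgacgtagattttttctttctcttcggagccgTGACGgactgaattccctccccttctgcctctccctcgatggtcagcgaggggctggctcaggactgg
SPRED1, chr15:38252586-38252835, plus strand: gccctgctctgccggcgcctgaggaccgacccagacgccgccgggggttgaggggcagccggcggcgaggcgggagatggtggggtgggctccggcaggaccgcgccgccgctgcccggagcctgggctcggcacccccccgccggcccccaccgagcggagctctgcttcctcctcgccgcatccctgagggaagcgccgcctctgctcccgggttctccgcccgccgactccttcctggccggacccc
SPRED2, chr2:65432600-65432849, minus strand: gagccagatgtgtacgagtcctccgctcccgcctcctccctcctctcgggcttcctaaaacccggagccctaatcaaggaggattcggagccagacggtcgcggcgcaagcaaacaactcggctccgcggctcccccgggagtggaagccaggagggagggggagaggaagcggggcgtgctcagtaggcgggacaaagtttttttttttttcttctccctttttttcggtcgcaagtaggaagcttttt

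Windows were used for 6 of the 10 genes (10 windows, since SPRY1, SPRY2 and SPRED2 have several annotated starts). CCGGAA was found in 2 of the 10 windows, 1 of SPRY1 and 1 of SPRY2, against 14.5% of all 35116 windows of this length. TGACG was found in 2, those of SPRY2 and SPRY4, against 21.2% of all windows. The longer ETS motif CCGGAAGT, which contains CCGGAA, the full CRE TGACGTCA, which contains TGACG, and the AP-1 motif TGANTCA were in 0 of the 10 windows. They occurred in 3.42%, 1.65% and 6.57% of all windows. A match is a description of letters and shows no binding. None of the motifs searched was in the windows shown for DUSP6, SPRED1 and SPRED2, in the other SPRED2 window or in the other 2 windows of SPRY2.

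For 7 of the 10 genes the signal was higher on both vector arrays than on control: DUSP4, DUSP6, SPRY2, SPRY4, SPRED1, SPRED2 and ETV5. Of the 10 genes, 9 were above the floor on every array, these 7 among them. Control was also the lowest array for 33.7% of all 11261 genes above the floor on every array. Signals are log2 values, and a floor at the pooled median of all probe sets (5.93) was applied before ratios were taken, so differences of dim genes are understated. Each gene was read from its brightest probe set on average. All 10 genes passed the floor on 1 array or more. For ORF against control 5 genes were at least 1.5-fold higher (DUSP4, DUSP6, SPRY4, SPRED2 and ETV5) and 0 lower, where 3.04% of the 12664 genes above the floor were higher and 2.82% lower. For shRNA against control 3 were higher (DUSP4, DUSP6 and ETV5) and 1 lower (ETV4), where 3.59% of genes were higher and 3.3% lower. The median log2 ratio of the 10 genes was 0.56 for ORF against control and 0.45 for shRNA against control, beside 0 and −0.01 over all genes above the floor. When each gene was read as the median of its probe sets, these medians were 0.28 and 0.082, and the counts of genes higher were 3 (ORF) and 1 (shRNA) in place of 5 and 3. Probe sets below the floor on every array count as 0 in that reading, which pulls it toward 0. These 2 comparisons share the control array, so a low reading on that array would enter both.

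By probe set, 17 of the 24 were above the floor on an array and 14 on all 3; the other 3 passed it through 1 array and are left out of the counts that follow. Among the 14, 9 were at least 1.5-fold higher for ORF against control and 0 lower, beside 3.13% and 2.53% of all 21071 probe sets above the floor on every array. For shRNA against control, 4 were higher and 1 lower, beside 3.94% and 3.19%. Among these 14 probe sets, ORF gave the highest of the 3 readings for 10 and control the lowest for 10. Over all 21071 such probe sets ORF was highest for 32.0% and control lowest for 35.4%. Probe sets of 1 gene share their RNA and are not replicates.

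**Figure D1:**
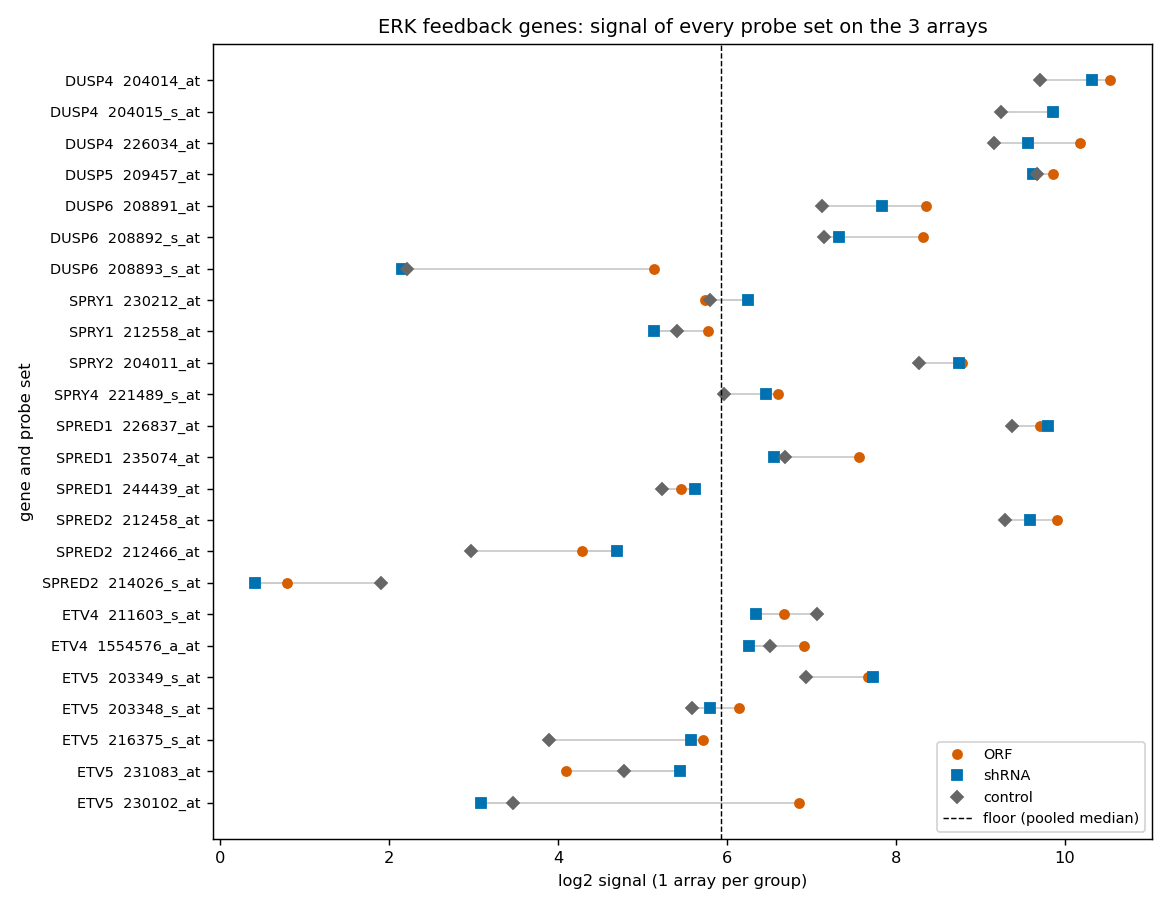
Log2 signal (horizontal axis) of each of the 24 probe sets of the 10 ERK feedback genes on the arrays labelled ORF (circles), shRNA (squares) and control (diamonds), with the floor at 5.93 as a dashed line. The control array has the lowest reading for 10 of the 14 probe sets that lie right of the floor on every array, and 7 probe sets lie left of it on all 3.

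Among the phosphatases, DUSP6, a cytoplasmic phosphatase selective for ERK, differed most. Its probe set 208891_at read 8.35 for ORF, 7.84 for shRNA and 7.12 for control. Probe set 208892_s_at read 8.32, 7.33 and 7.14. ORF was the highest array for both, while shRNA lay between the others for the first and close to control for the second. The log2 ratio of ORF to control was 1.23 and 1.17 (2.35-fold for the first). The probe-set noise SD at this signal was 0.29 for both; it is the spread of ratios between probe sets of the same gene and leaves out all variation between cultures. The 2.35-fold difference placed DUSP6 38th from the highest of 12664 genes, and it was the only one of the 10 genes at least 2-fold higher, where 0.655% of genes were. For shRNA against control 0 of the 10 genes were at least 2-fold higher, where 0.671% of genes were. The shRNA ratios of DUSP6 to control were 0.72 and 0.19 (noise SD 0.32 and 0.33), so its 1.5-fold call rests on 1 probe set. The remaining probe set, 208893_s_at, was below the floor on every array, at 5.13, 2.15 and 2.21, and is given no ratio.

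DUSP4, a nuclear phosphatase of ERK and other MAP kinases, had 3 probe sets above the floor, and control was the lowest array for each. Probe set 204014_at read 10.53 for ORF, 10.32 for shRNA and 9.71 for control. The other two read 9.86, 9.86 and 9.24 (204015_s_at) and 10.17, 9.56 and 9.16 (226034_at). Log2 ratios of ORF to control were 0.83, 0.61 and 1.02, against noise SDs of 0.13 to 0.18. Those of shRNA to control were 0.62, 0.62 and 0.40, against noise SDs of 0.19 to 0.24. All 3 ratios of ORF thus passed 1.5-fold and were several times the noise SD, and 2 of the 3 ratios of shRNA passed it. DUSP5, a nuclear phosphatase restricted to ERK, differed little. Its probe set 209457_at read 9.86, 9.63 and 9.67, with log2 ratios of 0.18 (ORF, noise SD 0.18) and −0.04 (shRNA, noise SD 0.24), about the noise SD or below it.

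The Sproutys, membrane-bound inhibitors of receptor signalling to RAS and RAF, divided by signal. SPRY2 read 8.78 for ORF, 8.75 for shRNA and 8.28 for control, so both vector arrays lay together above control. Its log2 ratios were 0.51 (noise SD 0.24) and 0.48 (noise SD 0.27), or 1.42-fold and 1.39-fold, short of 1.5-fold. SPRY4 read 6.61, 6.46 and 5.97, with control just above the floor. Ratios were 0.64 (1.56-fold, noise SD 0.40) for ORF and 0.49 (1.40-fold, noise SD 0.44) for shRNA, so the call for ORF is little above the noise SD and rests on the only probe set. SPRY1 was at the floor. Its probe set 230212_at read 5.74, 6.25 and 5.80, above the floor on shRNA only (log2 ratio 0.33, noise SD 0.30), and 212558_at read 5.77, 5.14 and 5.40, below it on all 3 arrays.

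SPRED1 and SPRED2 inhibit RAS signalling at the membrane, SPRED1 by bringing neurofibromin there. SPRED2 probe set 212458_at read 9.91 for ORF, 9.59 for shRNA and 9.29 for control, with shRNA between the others. Its log2 ratio to control was 0.61 (1.53-fold, noise SD 0.18) for ORF and 0.29 (noise SD 0.24) for shRNA. The other 2 probe sets of SPRED2 were below the floor on every array, at 4.28, 4.70 and 2.97 (212466_at) and at 0.79, 0.42 and 1.90 (214026_s_at). With the median over its 3 probe sets the SPRED2 ratio to control became 0 for both vectors. The 2 probe sets below the floor count as 0 there, so this median is 0 whatever 212458_at reads. SPRED1 probe set 226837_at read 9.71, 9.80 and 9.37, so both vector arrays were above control (log2 ratios 0.34, noise SD 0.18, and 0.42, noise SD 0.24). Its probe set 235074_at read 7.56, 6.55 and 6.69 and placed only ORF above control (0.88, noise SD 0.41), with shRNA at −0.13. The last, 244439_at, stayed below the floor at 5.46, 5.62 and 5.23.

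ETV5 and ETV4, both of the PEA3 group of ETS factors, differed from each other. The brightest ETV5 probe set, 203349_s_at, read 7.67 for ORF, 7.73 for shRNA and 6.93 for control, with log2 ratios of 0.74 (1.67-fold, noise SD 0.36) and 0.80 (1.74-fold, noise SD 0.38). ETV5 had the highest shRNA ratio among the 10 genes. Its dimmer probe sets differed in pattern: 230102_at read 6.86, 3.08 and 3.47 and 203348_s_at read 6.15, 5.80 and 5.59, each above the floor on ORF only. Below the floor on every array were 216375_s_at (5.71, 5.57 and 3.89) and 231083_at (4.09, 5.44 and 4.79). Over the 5 probe sets of ETV5 the median ratio was 0.22 for ORF and 0 for shRNA. Only 203349_s_at was above the floor on every array, and it passed 1.5-fold for both vectors. The ORF ratio of 230102_at (0.93) also passed, but it is the distance of the ORF reading from the floor and adds no support.

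ETV4 was the one gene of the 10 called lower. Probe set 211603_s_at read 6.67 for ORF, 6.35 for shRNA and 7.06 for control, with control the highest array. The log2 ratio of shRNA to control was −0.71 (1.64-fold lower, noise SD 0.42). Probe set 1554576_a_at read 6.91, 6.26 and 6.51 and gave −0.25 (noise SD 0.43), so both placed shRNA lowest but only 1 passed 1.5-fold. For ORF against control these probe sets had opposite signs, −0.39 and 0.40 (noise SD 0.42 each), and no direction can be given for ETV4 there.

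Set directly against each other, ORF and shRNA differed by less than 1.5-fold for all 10 genes when the brightest probe set stood for the gene. The share of all genes past this fold was 2.64% higher and 2.68% lower. The largest ratios were 0.51 for DUSP6 (noise SD 0.28), −0.33 for SPRY1 (0.32), 0.32 for ETV4 (0.41) and 0.32 for SPRED2 (0.21). That of ETV4 is below its noise SD. That of SPRY1 is about its noise SD and is the distance of the shRNA reading from the floor. The median over the 10 genes was 0.18, beside 0.01 over all genes. By probe set, 4 of the 14 above the floor on every array were at least 1.5-fold higher on ORF and 0 lower, beside 2.7% and 2.64% of all such probe sets. These were SPRED1 235074_at (1.01, noise SD 0.37), DUSP6 208892_s_at (0.99, noise SD 0.30), ETV4 1554576_a_at (0.66, noise SD 0.42) and DUSP4 226034_at (0.62, noise SD 0.21). Each belongs to a gene whose brightest probe set gave a smaller ratio: −0.09 for SPRED1, 0.51 for DUSP6, 0.32 for ETV4 and 0.21 for DUSP4. How far ORF stood above shRNA for these 4 genes therefore depends on the probe set read. For SPRED1 and DUSP4 (−0.01 at 204015_s_at) the sign does too.

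**Figure D2:**
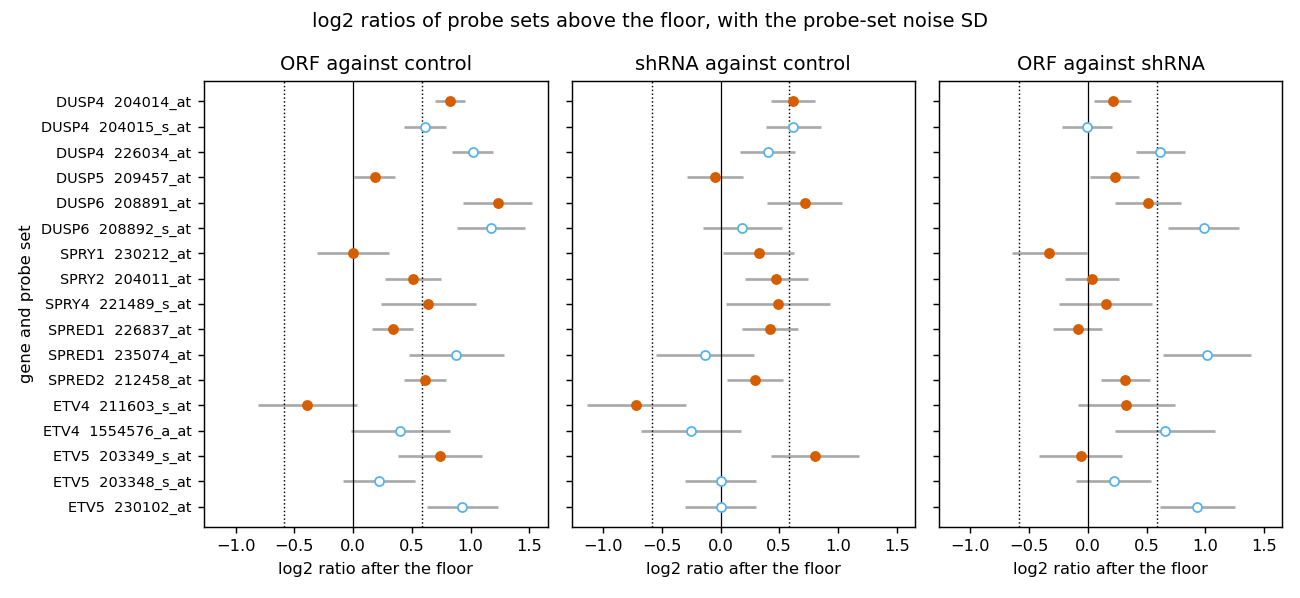
Log2 ratio after the floor (horizontal axis) of the 17 probe sets above the floor, for each of the 3 comparisons; filled points are the brightest probe set of each gene, open points its other probe sets, bars the probe-set noise SD, and dotted lines 1.5-fold. Of the 14 probe sets above the floor on every array, 9 lie right of the upper dotted line for ORF against control and 0 left of the lower one, and 4, all open points, lie right of it for ORF against shRNA.

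Of 79 other pathway genes on fixed lists, 71 were matched (the rest were not analysed here) and 62 were above the floor. For ORF against control 3 of the 62 were at least 1.5-fold higher and 0 lower, for shRNA against control 1 higher and 1 lower, and for ORF against shRNA 1 higher and 0 lower. Medians were 0.09, 0.02 and 0.02. With 2.64% to 3.59% of all genes past 1.5-fold in each direction, these counts by gene lie near the share of all genes, and counts of 0 in the lists below do not set those lists apart. Counts by probe set above the floor on 1 array or more, higher for ORF against control, were 6 of 27 for receptors and ligands. They were 0 of 34 for the cascade, 1 of 13 for other DUSPs and 1 of 22 for other inhibitors. Other ETS factors had 2 of 29 and other ERK output genes 2 of 14. In each list 0 were lower. Of all 24382 such probe sets 3.63% were higher and 3.05% lower. This filter is wider than that of the 14 member probe sets, so the list counts cannot be set beside the member counts. It admits probe sets above the floor on ORF alone. Of the 6, FGFR4 1554961_at is such a probe set, with 6.61, 3.18 and 4.87 on ORF, shRNA and control. Genes were read from their brightest probe set, and dimmer probe sets that passed 1.5-fold are given beside them.

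Of the receptors and ligands, 11 were above the floor. FGF2, a ligand of FGF receptors, was higher for ORF (log2 ratio 0.59, with 9.79, 9.60 and 9.20 on ORF, shRNA and control). Its other probe set, 204422_s_at, read 9.16, 9.74 and 8.45, with shRNA highest and log2 ratios to control of 0.71 (ORF) and 1.29 (shRNA). FGF18, another ligand, passed 1.5-fold for shRNA (0.83, noise SD 0.44), with readings of 6.40, 6.76 and 5.73. Control was below the floor there, so the ratio is the distance of the shRNA reading from the floor. The other FGF18 probe set above the floor gave −0.33. The receptor FGFR3 lay just short of 1.5-fold lower on both, at −0.58 and −0.55. Dimmer probe sets of FGFR1, FGFR4, MET and IGF1R also passed 1.5-fold, those of FGFR1 in both directions. IGF1R 225330_at read 9.64, 9.62 and 8.93. It gave 0.71 for ORF (noise SD 0.19) and 0.69 for shRNA (noise SD 0.23), where the brightest gave −0.06 and −0.05. MET 213816_s_at gave 0.59 for ORF, with a noise SD of 0.42. None of the 16 measured members of the cascade from adaptor to ERK and its substrates passed 1.5-fold by the brightest probe set in any of the 3 comparisons, and 1 other probe set did, ARAF 230652_at (−0.59, ORF against shRNA). The furthest from 0 were the docking protein GAB1 (0.40, ORF against control), the scaffold KSR1 (0.31, ORF against shRNA) and the ERK-binding protein PEA15 (0.29, shRNA against control). MAP2K1 and MAP2K2, which encode the MEK kinases, had ratios of 0.02 and −0.12 for ORF and 0.02 each for shRNA. MAPK3, one of the ERK genes, had 0.13 and −0.13.

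Of 7 other DUSPs that act on MAP kinases, 0 passed 1.5-fold in any comparison by the brightest probe set. DUSP1 226578_s_at, which read 5.28, 7.13 and 6.35, gave 0.78 for shRNA against control and −1.20 for ORF against shRNA, where the brightest gave 0.16 and −0.25. DUSP7 214793_at gave 0.59 for ORF against control (noise SD 0.41). By the brightest probe set, DUSP16 and DUSP10, which act mainly on JNK and p38, came closest for ORF (0.49 and 0.43), and DUSP10 for shRNA (0.40). Among 9 measured other inhibitors, SPRED3, the remaining SPRED, was higher for ORF (0.96, noise SD 0.40), with readings of 6.89, 6.49 and 5.15; its ratio for shRNA was 0.57. The receptor inhibitor LRIG1 had ratios of 0.55 and 0.32. Dimmer probe sets of CBL and RASAL2 passed 1.5-fold in comparisons with shRNA. CBL 243475_at gave 0.65 for shRNA against control and −0.79 for ORF against shRNA. RASAL2 1557432_at gave −0.79 and RASAL2 234910_at 0.71, both for ORF against shRNA. Of 11 other ETS factors 0 passed by the brightest probe set, with ELK3 (0.50) and ETV6 (0.47) furthest for ORF, and ELK3 (0.43) and ETS1 (0.42) for shRNA. ETS1 1555355_a_at, which was lowest on control (6.07), gave 0.93 for ORF and 1.14 for shRNA (noise SD 0.42 each), and ELK4 214831_at gave 0.67 for ORF.

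Other genes known to follow ERK did not share 1 pattern. The early response gene IER3 had log2 signals of 11.86, 10.93 and 10.78 on ORF, shRNA and control. It was higher for ORF against control (1.08) and against shRNA (0.93). CCND1, which encodes cyclin D1, had ratios of 0.39 (ORF) and −0.18 (shRNA), and 0.57 for ORF against shRNA. EGR1, an early response factor, was lower for shRNA (−0.89), with readings of 6.44, 5.78 and 6.82, and had −0.38 for ORF. FOSL1 (0.34 and 0.32) and MYC (0.24 and 0.19) were above control on both arrays without passing 1.5-fold, while the receptor EPHA2 had −0.19 and −0.35. PHLDA1 had 0.13 and 0.17, and its dimmer probe set 217999_s_at gave 0.73 and 0.66 (noise SD 0.42 and 0.43). Its probe set 217998_at gave −0.68 for ORF against shRNA.

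**Figure D3:**
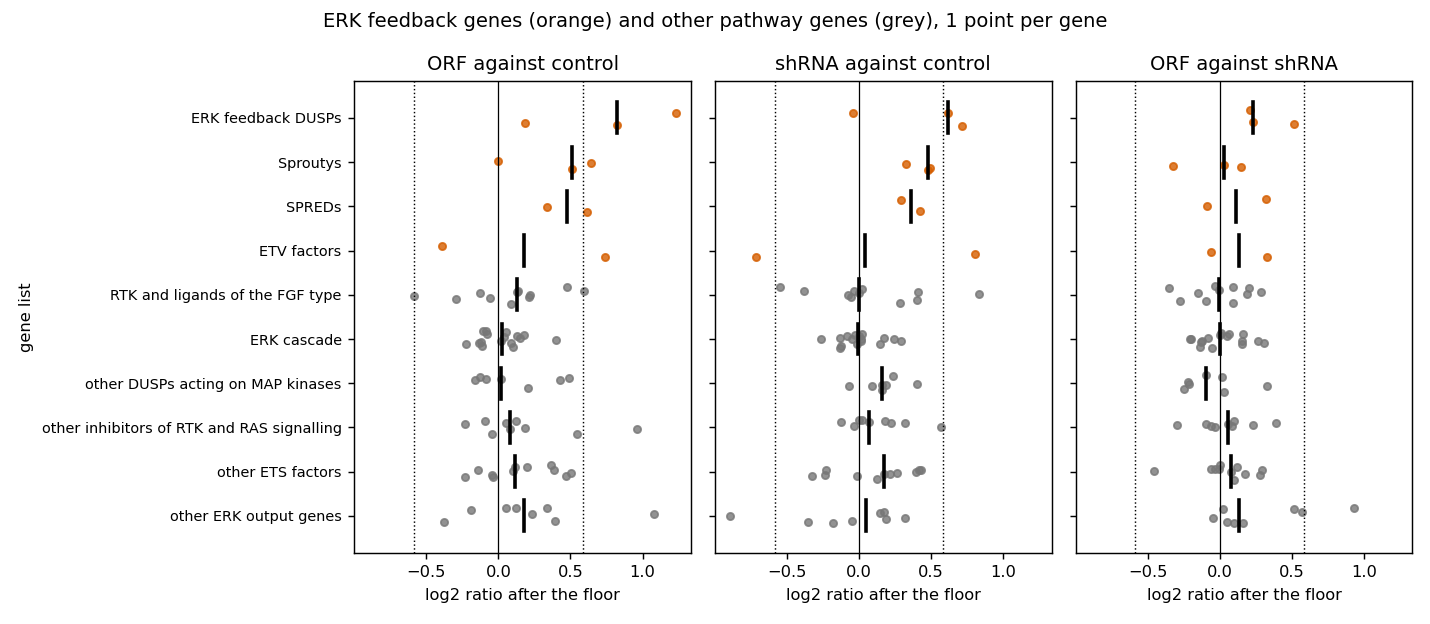
Log2 ratio after the floor (horizontal axis) of each gene above the floor in the ERK feedback lists (orange) and the other pathway lists (grey), by comparison; thick bars are list medians, dotted lines 1.5-fold, and points are spread vertically only for legibility. For ORF against control the DUSP list has its median at 0.83, but it was chosen with the ratios of DUSP6 and DUSP4 already seen. The ERK cascade list has its median at 0.03 and no gene past 1.5-fold by its brightest probe set. The gap between these medians is therefore a description only.

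Among the 7849 genes with a mean signal in the top 25% of probe sets, the 5 nearest to DUSP6 by Euclidean distance over the ratios of ORF and shRNA to control were RAB31, IGFBP1, IL11, CYP1B1 and SERPINE2. Their ratios for ORF and shRNA were 1.19 and 0.62 for RAB31, 1.11 and 0.69 for IGFBP1, and 1.23 and 0.84 for IL11. CYP1B1 had 1.05 and 0.65, and SERPINE2 1.48 and 0.70. This likeness covers 3 arrays only, and the DUSP6 values are those of its brightest probe set. At 208892_s_at the shRNA ratio was 0.19, so the neighbours depend on the probe set read. DUSP6 itself, with a mean signal of 7.77, lay below the cut of 8.63, so genes as dim as DUSP6 were not candidates.

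**Figure D4:**
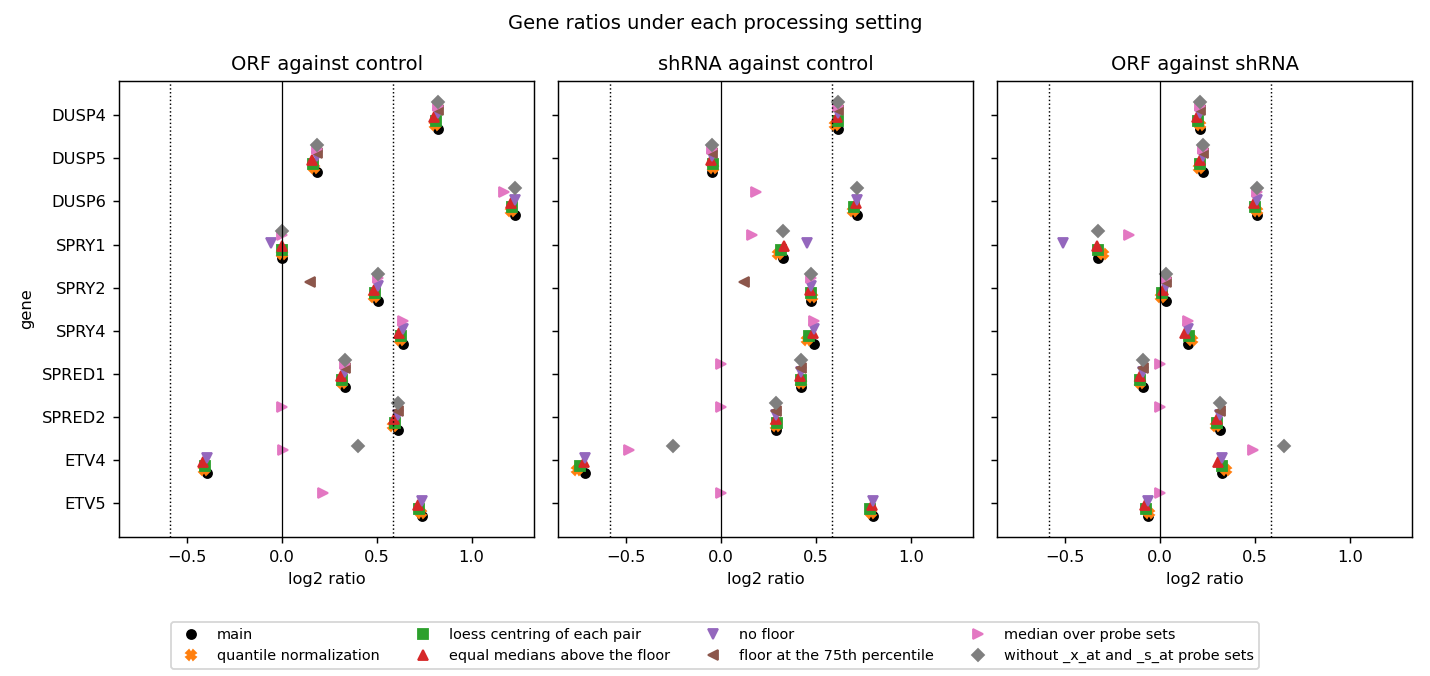
Log2 ratio (horizontal axis) of each of the 10 genes under the main setting (black circles) and each alternative that gives a value, by comparison, with dotted lines at 1.5-fold. DUSP4 stays right of the upper dotted line for both vectors against control under every setting drawn, whereas the shRNA ratio of DUSP6 drops to 0.19 and that of ETV5 to 0 with the median over probe sets.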

How the data were processed

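The authors' deposited values are log2 signals for 54675 probe sets on 3 arrays, made with MAS5 per the submitters' processing notes, with version and scaling target not given in the sources used here. The log base was read from the values: the linear mean without the top and bottom 2% was 500.1 on each array. GEO's platform annotation gave 1 symbol for 41097 probe sets, several for 1801 and none for 11777. Arrays were scaled to equal trimmed means, which moved no value by more than 1.95e-06, floored at the pooled median (linear 60.8), and compared as log2 ratios (Python 3.11.15, pandas 2.3.3). Noise SDs came from 5847 pairs of probe sets of 1 gene that differed by at most 1 in mean log2 signal, in 20 signal bins. Called means past 1.5-fold. With 1 array per group no test between groups was made. Members, lists and thresholds were chosen with earlier results of these data known. By rule, the text names all member probe sets, up to 3 genes per pathway list and comparison with the largest ratios, and the 5 genes nearest to DUSP6; MAP2K1, MAP2K2, MAPK3, MYC and other list members were also named after their values were seen. The script was checked on simulated data. The alternatives tried were the median over probe sets, dropping probe sets that end in _x_at or _s_at, loess centring, quantile normalization, equal medians, another floor (the 75th percentile) or none, and a 2-fold threshold.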

Additional observations from a re-analysis of the deposited data

How the results depend on the processing

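Quantile normalization, loess centring, equal medians and no floor left every count of called genes and every median for the 10 genes within the limits set (counts within 1.5 times, medians within the noise SD). The count of genes higher for ORF against control (5) became 2 with the floor at the 75th percentile, 3 with the median over probe sets, 3 without _x_at and _s_at probe sets, and 1 at 2-fold. For shRNA against control the count of higher genes (3) became 1, 1 and 0 with that floor, the median over probe sets and 2-fold, and the 1 lower gene became 0 under these settings and without _x_at and _s_at probe sets. ORF against shRNA went from 0 higher genes to 1, ETV4, without _x_at and _s_at probe sets. With the median over probe sets, the median ratio was 0.28 for ORF and 0.082 for shRNA against control. That floor left 5 of the 10 genes measured and leaving out these probe sets left 8, and the median over probe sets counts those under the floor as 0. Of 189 single-gene values under alternatives, 178 moved by less than the noise SD and 11 by more. Many of the 178 could not move, as with the median over probe sets for a gene with 1 probe set. Genes that a setting left unmeasured are not among the 189. The share that stayed is therefore no measure of robustness. No paired analysis was possible because each group had 1 array. Signal near the floor limits SPRY1, SPRY4, ETV4 and the dimmer ETV5 probe sets.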
